A study of Homo sapiens with 6 samples.

Results

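The mitochondrial ribosomal proteins (MRPs) are the nuclear-encoded proteins of the mitoribosome. Their genes were taken by symbol, as every protein-coding gene whose name starts with MRPL or MRPS and a number, leaving out chromosome 18 and part of 5q, the long arm of chromosome 5. Of 58735 genes in the deposited table, 78 matched the symbol and 77 were kept. The 1 gene left out by its position was MRPL22 (chromosome 5, 154941070 to 154969411, plus strand), which had 58.8, 62.02 and 62.3 CPM in BARD1-expressing libraries 1 to 3, against 47.6, 49.7 and 44.1 CPM in control libraries 1 to 3 (log2 fold change 0.38 ± 0.067, adjusted p = 0.000131). The 77 genes lie on 21 chromosomes.

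The mitoribosome works in the mitochondrial matrix, where it translates the few mRNAs of the mitochondrial genome, all of which encode subunits of the respiratory chain complexes or of ATP synthase. Its small subunit binds and decodes the mRNA and is built around the rRNA MT-RNR1, and its large subunit joins the amino acids and is built around the rRNA MT-RNR2. All MRPs are made in the cytosol and imported, and they divide into counterparts of bacterial ribosomal proteins and proteins found only in mitochondrial ribosomes. By this division, taken from the standard nomenclature, 50 of the 77 belong to the large subunit and 26 to the small one, with MRPS18A and MRPS30 counted in the large subunit despite their symbols. MRPS36, also called KGD4, is a component of the 2-oxoglutarate dehydrogenase complex rather than of the mitoribosome, and was kept apart. Of the other 76, 45 have a bacterial counterpart and 31 are specific to mitochondria.

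The study introduced BARD1, a protein that binds BRCA1 and forms a ubiquitin ligase with it, into human ovarian carcinoma cells, with tumor angiogenesis as its interest. It compared 2 groups of 3 libraries, BARD1-expressing cells and control cells, both labelled as stable cells at 48 h. BARD1 came by lentiviral transduction of OVCAR8 cells, with a GFP-BARD1 product mentioned in the labels, whereas the control is labelled only as control, so whether it carries a vector is unknown here. The titles call the cells OVCAR8ip1, while the cell line label reads SKOV3ip1 and the tissue label SKOV3ip1 tumors, and the identity of the line and of the material is therefore uncertain. The titles call the 3 libraries of each group biological replicates, but nothing in the labels says how many independent transductions they stand for. A p-value therefore reflects the spread among the 3 libraries of each group, which may not include that between transductions.

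BARD1 itself had 49.00, 44.3 and 45.7 CPM in BARD1-expressing libraries 1 to 3, against 17.1, 17.2 and 19.4 CPM in control libraries 1 to 3 (log2 fold change 1.37 ± 0.081, adjusted p = 4.67e-12), where CPM is the count scaled to a library of 1e+06 counts after TMM normalization. Reads of the introduced and of the endogenous gene cannot be told apart in this count. Library totals were between 12744310 and 24349158 counts in the BARD1-expressing group and between 21819199 and 23992482 in the control group, and BARD1-expressing libraries 1 and 3 were the shallowest. A count of 0 allows up to 3 counts, or 0.124 to 0.236 CPM across the 6 libraries, and this covers counting error only. Markers of the labelled ovarian serous carcinoma were present in sum at 3924 to 4192 CPM in BARD1-expressing libraries and 3955 to 4027 CPM in control libraries, but MUC16 was at 0 in all 6 and WT1 at 0.393 to 1.78 CPM against 0.307 to 0.461 CPM. A gene was called changed at an adjusted p under 0.05 in edgeR's quasi-likelihood test with Benjamini-Hochberg adjustment over all 15400 tested genes. Fold changes are BARD1-expressing over control on the log2 scale, given with their standard error (SE).

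Nuclear genes for mitochondrial proteins are known to share binding sites of a few transcription factors near their starts, among them NRF1, GABP of the ETS family, YY1 and CREB. RefSeq promoters (GRCh38.p14, 250 bases before to 50 after the start, the first listed for each gene) matched 68 of the 77 genes. Those not matched were MRPL2, MRPL10, MRPL13, MRPL15, MRPL21, MRPL23, MRPL35, MRPS28 and MRPS36. The promoters of 5 members, chosen as examples, are shown 5′ to 3′ on the strand of the gene, with the ETS letters CCGGAAG and the YY1 letters AAGATGGCG in capitals. MRPL3 (chr3:131502922-131503221, minus strand) and MRPL20 (chr1:1407244-1407543, minus strand) were lower and hold the ETS letters. MRPS30 (chr5:44808697-44808996, plus strand) was lower and holds the YY1 letters, as does MRPL46 (chr15:88467339-88467638, minus strand), whose start faces that of MRPS11. MRPS14 (chr1:175023376-175023675, minus strand) was higher and holds neither. MRPL1, MRPL19, MRPS11, MRPS27 and MRPS35 were lower, also hold neither and are not shown.
MRPL3: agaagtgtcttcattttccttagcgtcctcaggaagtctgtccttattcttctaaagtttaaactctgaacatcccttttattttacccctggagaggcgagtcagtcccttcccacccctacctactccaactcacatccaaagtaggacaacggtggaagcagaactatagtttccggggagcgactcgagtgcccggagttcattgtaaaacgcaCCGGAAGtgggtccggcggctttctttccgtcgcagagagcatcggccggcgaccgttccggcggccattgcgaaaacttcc
MRPL20: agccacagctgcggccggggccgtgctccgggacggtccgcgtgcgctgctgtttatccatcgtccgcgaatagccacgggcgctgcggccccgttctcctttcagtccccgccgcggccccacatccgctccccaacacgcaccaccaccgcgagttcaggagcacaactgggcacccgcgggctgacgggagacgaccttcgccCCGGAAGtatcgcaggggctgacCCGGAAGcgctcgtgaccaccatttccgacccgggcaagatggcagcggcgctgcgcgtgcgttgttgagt
MRPS30: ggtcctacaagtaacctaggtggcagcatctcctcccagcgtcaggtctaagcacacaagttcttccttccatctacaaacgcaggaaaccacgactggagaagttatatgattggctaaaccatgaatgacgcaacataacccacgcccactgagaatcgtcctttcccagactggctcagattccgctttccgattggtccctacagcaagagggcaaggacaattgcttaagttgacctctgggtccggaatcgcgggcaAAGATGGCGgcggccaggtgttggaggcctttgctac
MRPL46: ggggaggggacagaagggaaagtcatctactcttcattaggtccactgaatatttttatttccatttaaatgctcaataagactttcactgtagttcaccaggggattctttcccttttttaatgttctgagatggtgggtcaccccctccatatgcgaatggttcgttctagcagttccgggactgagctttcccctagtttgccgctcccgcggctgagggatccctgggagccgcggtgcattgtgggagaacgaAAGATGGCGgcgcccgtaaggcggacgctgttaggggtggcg
MRPS14: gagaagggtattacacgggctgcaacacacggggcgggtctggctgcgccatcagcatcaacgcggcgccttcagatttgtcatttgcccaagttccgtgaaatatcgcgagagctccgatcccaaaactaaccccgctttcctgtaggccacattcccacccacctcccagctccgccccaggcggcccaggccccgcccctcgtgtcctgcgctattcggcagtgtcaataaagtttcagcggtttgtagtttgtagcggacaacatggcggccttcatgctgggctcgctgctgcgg

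Positions count the RefSeq start as 1 and the base before it as -1. The ETS letters begin at position -32 in MRPL3 and at -44 and -21 in MRPL20, and the YY1 letters begin at position 14 in MRPS30 and 9 in MRPL46. Across the 68 promoters, on either strand, the ETS letters stood in 29 (42.6%), against 14.2% of 15843 promoters of protein-coding genes. These 15843 were taken whether or not the gene was expressed here, whereas all members were. A comparison with other expressed genes was not made. The YY1 letters stood in 12 (17.6%), against 2.74%, and in 9 of these 12 they began at or after the start, an arrangement that was also usual among all promoters with these letters (69.8%). The NRF1 letters GCGCATGCG were in 2 promoters (2.94%, against 2.76%), and the CREB letters TGACGTCA were in 0, against 2.59%. No 2 of these motifs overlapped in a promoter of the 68. In all 38 of the 68 held 1 or more of the 4 motifs (55.9%, against 20.3%). Among the members that fell and had a promoter entry, 3 of 10 held the ETS letters (MRPL3, MRPL20 and MRPS22) and 2 of 10 the YY1 letters (MRPS30 and MRPL50), and among the members that did not pass the test 26 of 56 held the ETS letters and 10 of 56 the YY1 letters. Neither of the 2 members that rose, MRPS14 and MRPL41, held any of the 4.

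All 77 MRP genes had enough counts to be tested. Of these 13 fell and 2 rose in BARD1-expressing cells, and 62 did not pass the test. The 13 that fell are 16.9% of the members, against 12.4% of all tested genes called lower, and the 2 that rose are 2.60%, against 16.5% of all tested genes called higher. In either direction 19.5% of the members were called, against 29.0% of all tested genes, 4460 of 15400. All members are protein-coding, and 74 averaged at least 5 CPM. Among all 10385 protein-coding genes at that level, 14.2% were called lower, 19% higher and 33.2% in either direction. Changes were small. The 13 that fell stood at 0.819 to 0.901 of their control level and the 2 that rose at 1.23 and 1.24, and no called member reached a log2 fold change of 0.5 in either direction. The median absolute log2 fold change was 0.234 over the 15 called members, against 0.407 over all called genes. These counts depend on single libraries. Members called lower were 5 without BARD1-expressing library 3 and 7 without control library 3. Members called higher were 7 without BARD1-expressing library 1, and 1 without BARD1-expressing library 2 or without control library 2. Calls over all tested genes moved too, between 3317 and 4755 with 1 library left out. Whether the member counts moved more than those of all genes was not tested.

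Over all 77 genes the median log2 fold change was -0.07 (quartiles -0.14 and 0.04), against -0.0027 over all tested genes. A negative value was found in 54 of the 77, against 7768 of all 15400 tested genes. The 3 BARD1-expressing libraries, each set against the mean of the controls, had member medians of -0.12, -0.016 and -0.08, so library 2 was nearest to 0. All 3 had the same sign at 38 of the 77 genes. The 2 groups did not overlap, with BARD1-expressing libraries lower, at 21 members, or 27.3% of the 77, against 19.2% of all tested genes. They did not overlap, with BARD1-expressing libraries higher, at 1 member, MRPS14, against 21.7% of all tested genes. Of the 10385 protein-coding genes averaging at least 5 CPM, 2148 were apart in the lower direction and 2533 in the higher. The 21 hold 12 of the 13 members that fell and 9 that did not pass the test, of which MRPL37 had the smallest adjusted p (log2 fold change -0.13 ± 0.052, adjusted p = 0.061). MRPL37 passed with library totals in place of TMM scaling (adjusted p = 0.0383), without BARD1-expressing library 2 (0.0314), without control library 1 (0.0348) and with GC content as an offset, chosen after seeing the data (0.00431). At 62 members the log2 fold change lay within 0.2 of 0, and the median SE was 0.073.

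**Figure D1:**
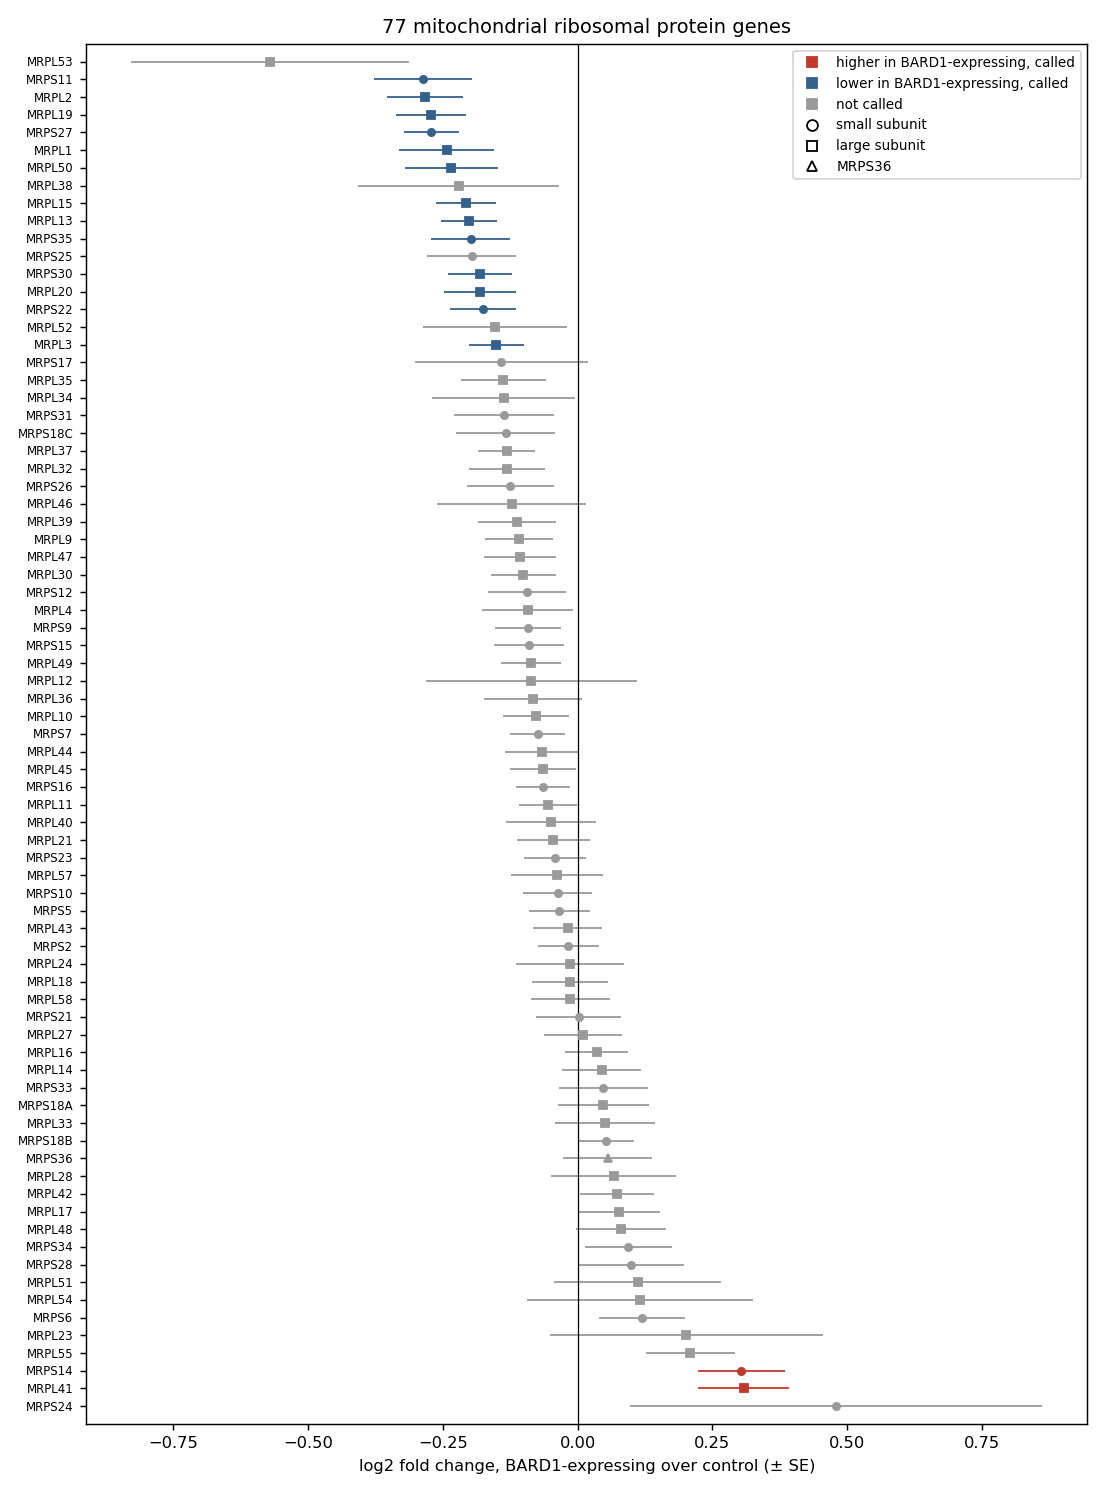
Log2 fold change of each of the 77 MRP genes, BARD1-expressing over control (x axis, bars ± SE), ordered from lowest to highest, with circles for the small subunit, squares for the large subunit and a triangle for MRPS36. The 13 called lower (blue) lie between -0.29 and -0.15, the 2 called higher (red) at 0.30 and 0.31, and the widest bars belong to MRPL53 and MRPS24, which have few counts and were not called.

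Summed over the 77 genes, BARD1-expressing libraries 1 to 3 held 4587, 4883 and 4779 CPM, against 5032, 4961 and 4969 CPM in control libraries 1 to 3. All 3 BARD1-expressing sums were below all 3 control sums, with means of 4750 ± 150 CPM and 4987 ± 38.8 CPM (SD, n = 3 each), a difference of -4.76%. As a share of all counts the members took 0.458%, 0.486% and 0.476% in the BARD1-expressing libraries, against 0.508%, 0.498% and 0.494% in the controls. The small subunit summed to 1762, 1851 and 1787 CPM in BARD1-expressing libraries and 1901, 1880.4 and 1875 CPM in controls, and the large subunit to 2801, 3009 and 2967 CPM in BARD1-expressing libraries and 3108, 3058 and 3069.8 CPM in controls. In both subunits the groups did not overlap. In bulk RNA, fewer cells of a kind and less RNA per cell cannot be told apart.

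Of the 13 members that fell, 9 belong to the large subunit and 4 to the small one. Of these, 5 passed the test in each of 13 repeats of the analysis, which changed the scaling, the low-count filter, the tool or the model, or left out 1 library. MRPS27 (chromosome 5, 72219409 to 72320646, minus strand), a mitochondria-specific protein of the small subunit with RNA-binding pentatricopeptide repeats, had 179, 173 and 183 CPM in BARD1-expressing libraries 1 to 3, against 205, 217 and 223 CPM in control libraries 1 to 3 (log2 fold change -0.27 ± 0.052, adjusted p = 0.000268). Its 3 BARD1-expressing values all lay below the lowest control, and it had the smallest adjusted p among the members. MRPL19 (chromosome 2, 75646783 to 75690851, plus strand), a large-subunit protein with a bacterial counterpart, had 71.1, 64.05 and 68.9 CPM in BARD1-expressing libraries 1 to 3, against 79.5, 77.96 and 88.2 CPM in control libraries 1 to 3 (log2 fold change -0.27 ± 0.065, adjusted p = 0.00254). MRPL2 (chromosome 6, 43054029 to 43059806, minus strand), the counterpart of a bacterial protein that lies close to the peptidyl transferase centre, had 37.2, 42.9 and 39.5 CPM in BARD1-expressing libraries 1 to 3, against 49.05, 48.5 and 48.7 CPM in control libraries 1 to 3 (log2 fold change -0.28 ± 0.071, adjusted p = 0.00358). The 3 control values of MRPL2 lay close together and above every BARD1-expressing value.

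The other 2 of the 5 lie on chromosome 8 and are large-subunit proteins with bacterial counterparts. MRPL15 had 106, 109.9 and 119 CPM in the BARD1-expressing libraries, against 127, 129.9 and 131 CPM in the controls (log2 fold change -0.21 ± 0.055, adjusted p = 0.00612). MRPL13, whose bacterial counterpart is one of the first proteins to bind the large rRNA, had 106, 109.8 and 111 CPM in the BARD1-expressing libraries, against 124, 124 and 127 CPM in the controls (log2 fold change -0.20 ± 0.052, adjusted p = 0.00508). For both genes the groups were apart, with all BARD1-expressing values below all control values. Over the 13 repeats the log2 fold change of MRPL13 ran between -0.22 and -0.19 and that of MRPL15 between -0.26 and -0.18.

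The other 8 that fell missed the threshold in 1 or more of the 13 repeats. Beside each gene stand its adjusted p above the threshold in DESeq2 and with 1 library left out. MRPS11 (chromosome 15, 88467453 to 88480773, plus strand), a small-subunit protein whose bacterial counterpart lies on the platform where the mRNA leaves, had 19.4, 21.1 and 18.8 CPM in BARD1-expressing libraries 1 to 3, against 24.5, 22.03 and 26.2 CPM in control libraries 1 to 3 (log2 fold change -0.29 ± 0.091, adjusted p = 0.0193). Adjusted p was 0.0888 without BARD1-expressing library 3 and 0.096 without control library 3. MRPS30 (chromosome 5, 44808925 to 44820428, plus strand), a mitochondria-specific protein of the large subunit with the YY1 letters in its promoter, had 92.3, 91.2 and 86.7 CPM in the BARD1-expressing libraries, against 100.2, 96.9 and 109 CPM in the controls (log2 fold change -0.18 ± 0.059, adjusted p = 0.0232). The adjusted p of MRPS30 was 0.131 without BARD1-expressing library 3 and 0.141 without control library 3. For MRPS11 and MRPS30 the groups did not overlap.

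MRPL3 (chromosome 3, 131462212 to 131502983, minus strand), the counterpart of a bacterial protein that reaches toward the peptidyl transferase centre, had 203, 192 and 199.7 CPM in the BARD1-expressing libraries, against 211, 219 and 230.2 CPM in the controls (log2 fold change -0.15 ± 0.051, adjusted p = 0.0289). For MRPL3 the adjusted p was 0.0731 without BARD1-expressing library 2, 0.0936 without BARD1-expressing library 3, 0.0823 without control library 2 and 0.137 without control library 3. MRPS22 (chromosome 3, 139005806 to 139357223, plus strand), a mitochondria-specific small-subunit protein whose mutation is known to cause respiratory chain deficiency, had 65.8, 61.7 and 63.97 CPM in the BARD1-expressing libraries, against 70.6, 71.2 and 74.04 CPM in the controls (log2 fold change -0.18 ± 0.061, adjusted p = 0.0319). The adjusted p of MRPS22 was 0.0884 without BARD1-expressing library 2, 0.0926 without BARD1-expressing library 3, 0.0757 without control library 2 and 0.104 without control library 3. MRPL3 and MRPS22 were among the members with the smallest changes that passed, and in both the groups were apart.

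MRPL1 (chromosome 4, 77862520 to 77952790, plus strand), the counterpart of the bacterial protein of the stalk through which spent tRNA leaves, had 24.1, 21.2 and 23.6 CPM in the BARD1-expressing libraries, against 26.5, 25.1 and 29.6 CPM in the controls (log2 fold change -0.24 ± 0.088, adjusted p = 0.0403). Its adjusted p was 0.0922 in DESeq2, and in edgeR 0.169 without BARD1-expressing library 2, 0.0725 without BARD1-expressing library 3, 0.0585 without control library 1 and 0.196 without control library 3. MRPL20 (chromosome 1, 1401908 to 1407313, minus strand), the counterpart of a bacterial assembly protein of the large subunit, had 48.8, 51.8 and 48.8 CPM in the BARD1-expressing libraries, against 59.8, 55.1 and 54.6 CPM in the controls (log2 fold change -0.18 ± 0.067, adjusted p = 0.0442). For MRPL20 the adjusted p was 0.0734 in DESeq2, and in edgeR 0.056 without BARD1-expressing library 1, 0.147 without BARD1-expressing library 3, 0.187 without control library 1 and 0.0743 without control library 2. In both genes every BARD1-expressing value lay below every control value.

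MRPL50 (chromosome 9, 101387633 to 101398614, minus strand), a mitochondria-specific protein of the large subunit, had 22.4, 22.9 and 20.3 CPM in the BARD1-expressing libraries, against 24.96, 24.9 and 27.5 CPM in the controls (log2 fold change -0.23 ± 0.086, adjusted p = 0.0427). Its adjusted p was 0.0967 in DESeq2, and in edgeR 0.191 without BARD1-expressing library 3, 0.0521 without control library 1, 0.0669 without control library 2 and 0.165 without control library 3. MRPS35 (chromosome 12, 27710773 to 27756295, plus strand), a mitochondria-specific protein of the small subunit, had 62.8, 51.8 and 53.5 CPM in the BARD1-expressing libraries, against 60.97, 62.8 and 68.4 CPM in the controls (log2 fold change -0.20 ± 0.073, adjusted p = 0.0448). For MRPS35 the adjusted p was 0.0792 in DESeq2, and in edgeR 0.182 without BARD1-expressing library 2, 0.181 without BARD1-expressing library 3, 0.0813 without control library 2 and 0.18 without control library 3. MRPS35 was the one member that fell whose groups overlapped, since BARD1-expressing library 1 lay above control library 1.

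The 2 members that rose stand in different subunits. MRPS14 (chromosome 1, 175010789 to 175023425, minus strand), a small-subunit protein with a bacterial counterpart, had 29.8, 30.5 and 28.1 CPM in BARD1-expressing libraries 1 to 3, against 23.5, 25.5 and 22.8 CPM in control libraries 1 to 3 (log2 fold change 0.30 ± 0.081, adjusted p = 0.00612). Its groups did not overlap, and it passed in all 13 repeats, with a log2 fold change between 0.27 and 0.35. MRPL41 (chromosome 9, 137551199 to 137552555, plus strand), a mitochondria-specific protein of the large subunit that is also known for binding BCL2, had 43.97, 57.1 and 52.2 CPM in BARD1-expressing libraries 1 to 3, against 44.2, 38.2 and 42.3 CPM in control libraries 1 to 3 (log2 fold change 0.31 ± 0.084, adjusted p = 0.00756). BARD1-expressing library 1 lay below control library 1, and the BARD1-expressing values varied by 13.0% (coefficient of variation, CV). The adjusted p of MRPL41 was 0.0771 without BARD1-expressing library 2 and 0.066 without control library 2. It has the highest GC content of all members, 71.9%, and with GC content as an offset for each library, an alternative chosen after seeing the data, its log2 fold change was 0.16 and its adjusted p 0.0649.

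**Figure D2:**
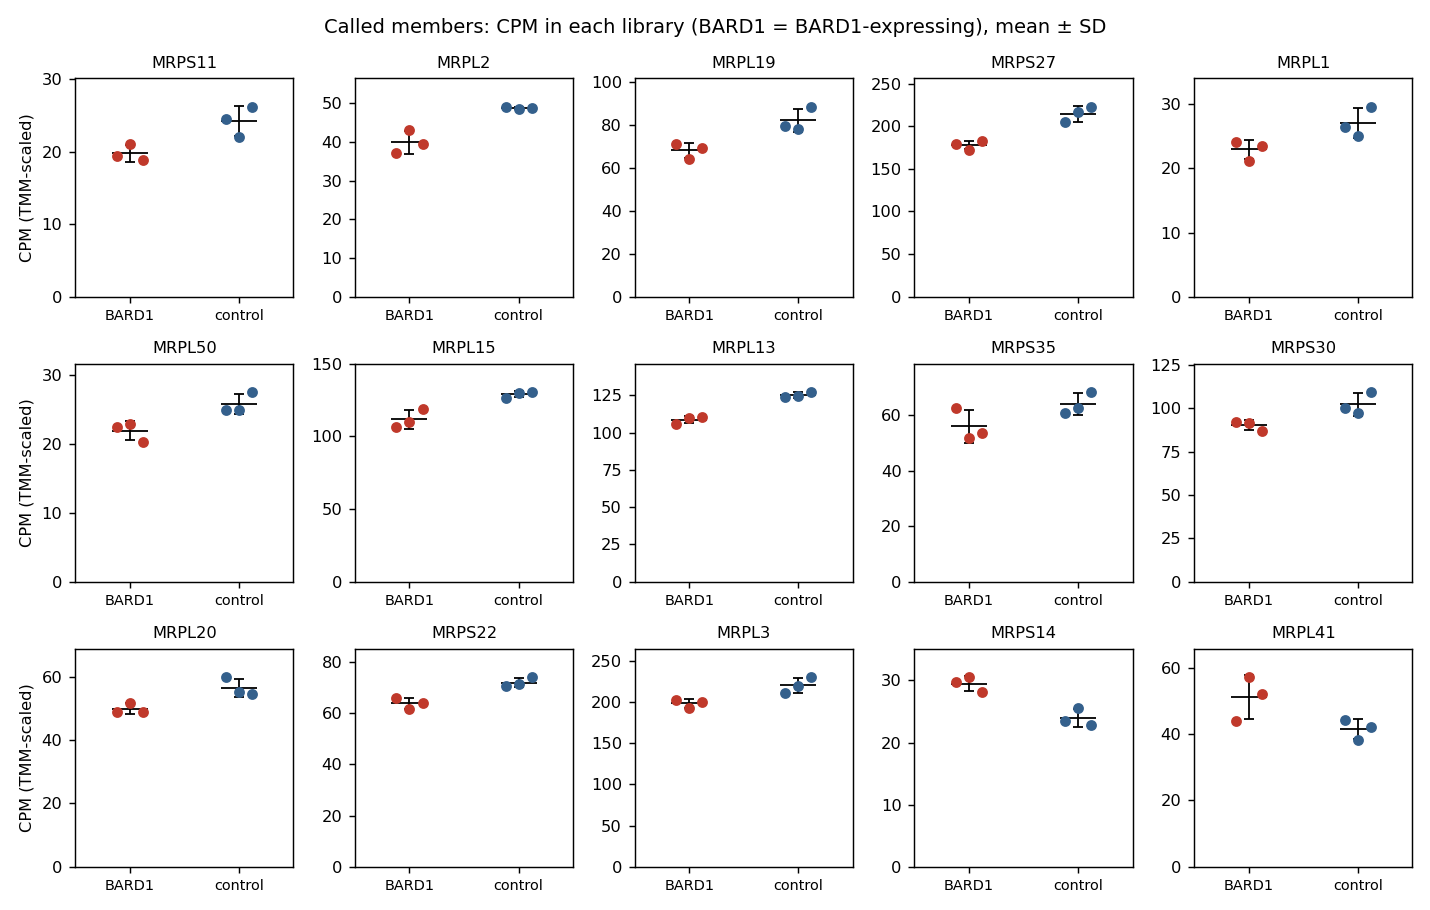
CPM (y axis, from 0) of the 15 called members in each library, with BARD1-expressing libraries 1 to 3 in red on the left and control libraries 1 to 3 in blue on the right of each panel, and lines for the mean ± SD. In the panels of MRPS35 and MRPL41 the groups overlap, and in the other 13 they do not.

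By subunit, 4 of 26 small-subunit members fell (15.4%) and 1 rose (3.85%), with a median log2 fold change of -0.07. Of 50 large-subunit members 9 fell (18%) and 1 rose (2%), with a median of -0.08. Of all tested genes 12.4% fell and 16.5% rose. The small-subunit count was 1 without BARD1-expressing library 3 and 1 without control library 3, and the large-subunit count was 4 without BARD1-expressing library 3 and 6 without control library 2 or 3. By origin, 8 of the 45 members with a bacterial counterpart fell (17.8%) and 1 rose (median -0.08), and 5 of the 31 mitochondria-specific ones fell (16.1%) and 1 rose (median -0.07). Members that fell were then 4 with a bacterial counterpart and 1 mitochondria-specific without BARD1-expressing library 3, 5 and 2 without control library 3, and 6 and 3 without control library 2. Joining both divisions, members that fell were 7 of 29 large-subunit proteins with a bacterial counterpart (24.1%), 2 of 21 mitochondria-specific ones of the large subunit (9.52%), 1 of 16 small-subunit proteins with a bacterial counterpart (6.25%) and 3 of 10 mitochondria-specific ones of the small subunit (30%). The medians of these 4 classes, between -0.13 and -0.05, all lay below 0, and no difference between classes was tested. MRPS18A had 24.1, 21.9 and 24.6 CPM in the BARD1-expressing libraries, against 22.03, 22.95 and 23.02 CPM in the controls (log2 fold change 0.05 ± 0.085, adjusted p = 0.725), and MRPS36 had 23.8, 23.1 and 25.5 CPM in the BARD1-expressing libraries, against 23.02, 22.9 and 23.7 CPM in the controls (log2 fold change 0.06 ± 0.083, adjusted p = 0.668). Neither of these 2 genes passed the test, and in both the groups overlapped.

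Levels of different genes are compared here as CPM per kilobase of the deposited gene length, which is the summed length of all annotated exons and exceeds that of a single transcript. By this measure the members spanned 0.357 to 116.7 CPM per kilobase, as means of both groups. The 5 highest were MRPS34, MRPL15, MRPL37, MRPS18B and MRPL3. MRPS34, a mitochondria-specific small-subunit protein, had 120.3 ± 15.1 CPM per kilobase in BARD1-expressing cells and 113 ± 8.21 in control cells, and MRPL15 had 93.8 ± 5.41 CPM per kilobase in BARD1-expressing cells and 108 ± 1.78 in control cells (SD, n = 3 each). MRPL37 had 88.2 ± 3.81 CPM per kilobase in BARD1-expressing cells and 96.8 ± 4.37 in control cells, MRPS18B 85.5 ± 3.44 CPM per kilobase in BARD1-expressing cells and 82.5 ± 2.07 in control cells, and MRPL3 73.1 ± 1.99 CPM per kilobase in BARD1-expressing cells and 81.1 ± 3.51 in control cells. In BARD1-expressing cells the levels of MRPL37 and MRPS18B differed by less than the SD of either and those of MRPL15 and MRPL37 by about 1 SD, while MRPS34 lay above and MRPL3 below these by more than their SDs. The 5 highest include 2 members that fell, MRPL15 and MRPL3, and 3 that did not pass the test.

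The 5 lowest per kilobase were MRPS24, MRPL38, MRPL46, MRPL53 and MRPS17. MRPS24 had 1.18, 0.619 and 1.53 CPM in the BARD1-expressing libraries, against 0.701, 0.920 and 0.646 CPM in the controls (log2 fold change 0.48 ± 0.38, adjusted p = 0.385), and MRPL53 had 1.89, 2.60 and 1.79 CPM in the BARD1-expressing libraries, against 3.84, 3.81 and 1.89 CPM in the controls (log2 fold change -0.57 ± 0.26, adjusted p = 0.104). These 2 genes held the largest log2 fold changes of all members in each direction, and in both the groups overlapped and neither passed the test. For MRPL53 this turned on control library 3: without it the log2 fold change was -0.83 and the adjusted p 0.00842. MRPL38 had 4.17, 4.46 and 3.92 CPM in the BARD1-expressing libraries, against 6.23, 3.68 and 4.75 CPM in the controls (log2 fold change -0.22 ± 0.19, adjusted p = 0.417), MRPL46 8.10, 8.63 and 6.77 CPM in the BARD1-expressing libraries, against 10.03, 7.93 and 7.75 CPM in the controls (log2 fold change -0.12 ± 0.14, adjusted p = 0.557) and MRPS17 4.09, 6.65 and 6.70 CPM in the BARD1-expressing libraries, against 6.31, 6.44 and 6.87 CPM in the controls (log2 fold change -0.14 ± 0.16, adjusted p = 0.562). Each of the 5 shares exon bases with another annotated gene: 45.2% of those of MRPL53 with CCDC142, 37.5% of MRPL38 with AC087289.3, 23.2% of MRPS24 with the readthrough gene URGCP-MRPS24, 21.8% of MRPS17 with AC092647.5 and 11.3% of MRPL46 with AC013489.1. The sources used here do not say to which gene reads in shared bases went, so the levels of these 5 are uncertain.

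**Figure D3:**
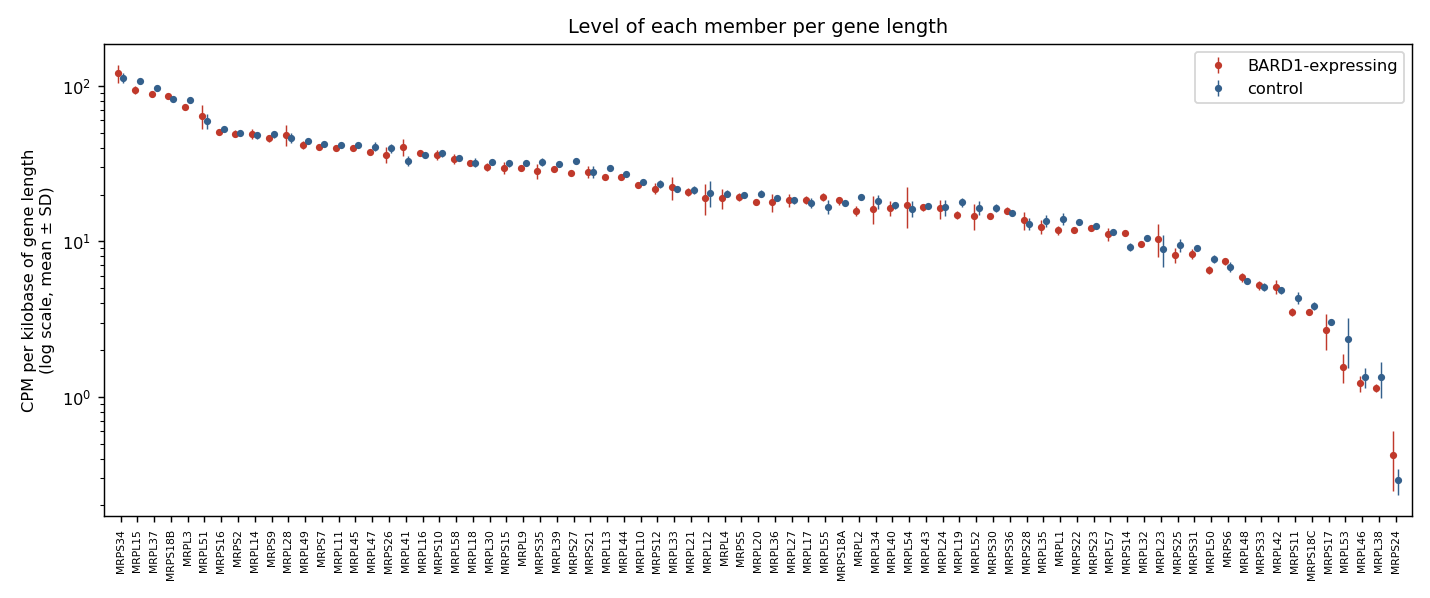
Level of each of the 77 members as CPM per kilobase of gene length (y axis, log scale, mean ± SD of 3 libraries), ordered by the mean of both groups, with BARD1-expressing cells in red and control cells in blue. Most members lie between 10 and 100, and the levels fall off more steeply at the right end, down to MRPS24 at 0.424 in BARD1-expressing and 0.289 in control cells.

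Across all members 41 shared exon bases with another gene, 16 of them with a gene on the same strand. Among the called members 8 did: MRPL2 shared 14.7% with KLC4, MRPS14 13.5% with CACYBP, MRPL20 10.5% with RN7SL657P and 5.0% with AL391244.1, MRPS11 9.2% with AC013489.3, MRPL19 2.9% with GCFC2, MRPS27 2.9% with PTCD2, MRPS22 5.4% with PRR23A, 1.6% with COPB2 and 0.8% with AC024933.1, and MRPL13 0.1% with MTBP. The labels mention directional as well as non-directional cDNA synthesis. Whether counting used strand is therefore unknown, and reads in these bases cannot be assigned with certainty. Named pseudogenes of members numbered 74, for 33 of the 77 genes, and held over 5% of the counts of their parent gene only for MRPS31 (13.0%), which did not pass the test (log2 fold change -0.14 ± 0.092, adjusted p = 0.294).

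In 17 members (22.1%, against 7.38% of 19951 protein-coding genes) a protein-coding gene on the opposite strand starts within 1000 bases upstream, head to head. Pairs whose 5′ ends overlap were not counted. The partner could be tested for 16 of the 17 members. In 1 case both genes are members: MRPS11 and MRPL46 start 34 bases apart, and MRPS11 fell while MRPL46 did not pass the test at -0.12 ± 0.14, adjusted p = 0.557 (log2 fold change ± SE). MRPL47 starts 36 bases from NDUFB5 and MRPL36 34 bases from NDUFS6, both of which encode subunits of respiratory complex I, and in neither pair did a gene pass. MRPL50, which fell, faces the zinc finger gene ZNF189 at 259 bases (log2 fold change -0.05), and MRPL41, which rose, faces PNPLA7 at 665 bases (0.73 ± 0.29, adjusted p = 0.0569). Of the 16 tested partners 3 fell and 1 rose, beside 12.4% and 16.5% of all tested genes. The 3 were IGHMBP2, APBA3 and MRPS11, and MRPS11 is itself a member already counted among the 13 that fell. In 0 of the pairs did both genes pass.

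The members varied between BARD1-expressing libraries in a way that went with the GC content of their transcripts, which spanned 35.0% to 71.9%. Library 1 was the lowest of the 3 at 42 members and library 2 the highest at 43. In 23 members the CV of the BARD1-expressing group exceeded 10%, library 1 was the lowest in 17 of these, and their median GC content was 55.2%, against 48.9% in the other members. Over all tested genes with a GC value, the smoothed deviation from the 6-library mean at 65% GC was -0.05, 0.12 and 0.04 on the log2 scale in BARD1-expressing libraries 1 to 3, and 0.01, -0.03 and -0.10 in control libraries 1 to 3. At 40% GC it was 0.07, -0.08 and -0.01 in the BARD1-expressing libraries and -0.02, -0.01 and 0.06 in the controls. Median GC content was 44.7% in the 13 members that fell and 52.6% in those that did not pass. The 2 that rose lay far apart, MRPS14 at 39.9% and MRPL41 at 71.9%, so their median of 55.9% describes neither. Across the 77 members Pearson's r of GC content with the log2 fold change was 0.25, as a description of genes that share libraries and are not independent. With GC content as an offset, 18 members were lower and 1 higher, and 14 of the 15 calls were shared.

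**Figure D4:**
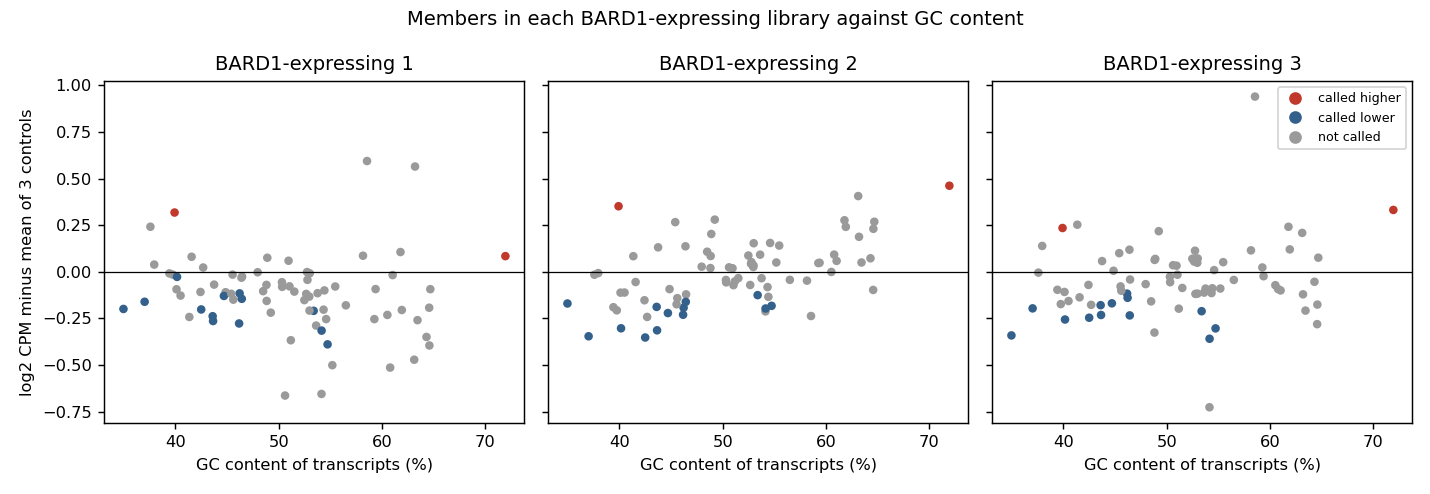
Difference in log2 CPM from the mean of the 3 controls (y axis) for each of the 77 members against the GC content of its transcripts (x axis, %), in BARD1-expressing libraries 1 to 3 from left to right, with called members in blue (lower) and red (higher). Of the 20 members over 55% GC, 15 lie below 0 in library 1, 5 in library 2 and 11 in library 3, while the 13 members called lower are below 0 in all 3 panels.

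The 3 members with the largest CV within a group, among those averaging at least 5 CPM, were MRPL54, MRPS17 and MRPL23. MRPL54, a mitochondria-specific large-subunit protein, had 11.6, 21.5 and 18.7 CPM in the BARD1-expressing libraries, against 18.4, 15.6 and 14.7 CPM in the controls (log2 fold change 0.12 ± 0.21, adjusted p = 0.74), a CV of 29.4% in BARD1-expressing cells. It passed as higher without BARD1-expressing library 1 (log2 fold change 0.31, adjusted p = 0.0246). MRPS17 had a CV of 25.7%, from BARD1-expressing library 1 alone, which lay below the other 5 libraries. MRPL23, whose bacterial counterpart stands at the exit of the peptide tunnel, had 38.7, 29.8 and 24.02 CPM in the BARD1-expressing libraries, against 33.3, 25.2 and 21.3 CPM in the controls (log2 fold change 0.20 ± 0.25, adjusted p = 0.631), a CV of 24.0%. In MRPL23 library 1 was the highest of each group. Over all members the median CV was 6.30% in BARD1-expressing cells and 5.34% in control cells.

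Other genes of mitochondrial translation were described from lists. Mitoribosomal proteins with other symbols numbered 5, and edgeR called 0 of them, against 29.0% of all tested genes (0 at an unadjusted p under 0.05, and 0 by DESeq2). DAP3, a GTP-binding protein of the small subunit, had 105, 100.3 and 104 CPM in the BARD1-expressing libraries, against 111, 110.2 and 112 CPM in the controls (log2 fold change -0.11 ± 0.053, adjusted p = 0.137). PTCD3, a pentatricopeptide protein of the small subunit, had a log2 fold change of -0.09 ± 0.061, adjusted p = 0.292, and GADD45GIP1, a protein of the large subunit, -0.02 ± 0.067, adjusted p = 0.86. Of 17 mitochondrial translation factors, edgeR called 0, against 29.0% of all tested genes (3 at an unadjusted p under 0.05, and 0 by DESeq2). All 17 had a negative log2 fold change, against 7768 of all 15400 tested genes, and their median was -0.10. All 17 stayed below 0 under each scaling alternative, 14 did without BARD1-expressing library 1, and 15 to 17 did without each other library. The 3 with the smallest p were OXA1L, which inserts new proteins into the inner membrane (-0.12 ± 0.050, adjusted p = 0.0694), MTRF1, a release factor (-0.28 ± 0.12, adjusted p = 0.0803), and RMND1 (-0.21 ± 0.092, adjusted p = 0.0939). The count of 0 called lower became 3 of 17 without BARD1-expressing library 1, RMND1 among them (adjusted p = 0.00974), and 2 with the GC offset, OXA1L among them (0.00678). It was 1 with library totals in place of TMM scaling, OXA1L (0.0465).

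Of 27 assembly and rRNA modification factors of the mitoribosome, 5 fell (18.5%, against 12.4% of all tested genes) and 1 rose (3.70%, against 16.5%), with a median log2 fold change of -0.09. Outside the regions left out for the members 4 of 26 fell and 1 rose. Whether the list differs from other genes was not tested. FASTKD2, an RNA-binding protein needed for the large rRNA, had 21.7, 19.9 and 18.05 CPM in the BARD1-expressing libraries, against 26.2, 27.6 and 28.9 CPM in the controls (log2 fold change -0.47 ± 0.088, adjusted p = 0.000204). MTERF3, which acts in assembly of the large subunit, had 28.2, 24.3 and 24.1 CPM in the BARD1-expressing libraries, against 34.4, 33.6 and 34.2 CPM in the controls (log2 fold change -0.42 ± 0.080, adjusted p = 0.000267). RBFA, an assembly factor of the small subunit, had 8.10, 10.3 and 10.1 CPM in the BARD1-expressing libraries, against 19.3, 19.3 and 17.7 CPM in the controls (log2 fold change -0.97 ± 0.11, adjusted p = 2.06e-07). In these 3 genes the groups were apart, and RBFA lies on chromosome 18, which the rule for the members leaves out. RPUSD4, a pseudouridine synthase that acts on the large rRNA, had a log2 fold change of -0.30 ± 0.069, adjusted p = 0.00163. METTL17, an assembly factor of the small subunit, had one of -0.22 ± 0.069, adjusted p = 0.0205, with an adjusted p of 0.134 without control library 1 and 0.0609 without control library 2. METTL15, which methylates the small rRNA, was the one that rose (0.30 ± 0.11, adjusted p = 0.0372), and its adjusted p was 0.107 in DESeq2, 0.0687 without the low-count filter, and 0.175 without BARD1-expressing library 1, 0.0836 without BARD1-expressing library 3, 0.0578 without control library 1, 0.101 without control library 2 and 0.0964 without control library 3.

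Of 17 mitochondrial aminoacyl-tRNA synthetases, which charge the tRNAs of the organelle, 2 rose and 1 fell (median log2 fold change 0.03). These are 11.8% and 5.88%, against 16.5% and 12.4% of all tested genes. HARS2 had 30.99, 33.8 and 31.9 CPM in the BARD1-expressing libraries, against 22.03, 22.95 and 23.6 CPM in the controls (log2 fold change 0.50 ± 0.079, adjusted p = 2.8e-05) and lies in the stretch of chromosome 5 that the rule leaves out. EARS2 had a log2 fold change of 0.21 ± 0.069, adjusted p = 0.0225, and its adjusted p was 0.0528 in DESeq2, 0.0505 without the low-count filter, and 0.0962 without BARD1-expressing library 3 and 0.135 without control library 1. NARS2 had one of -0.22 ± 0.072, adjusted p = 0.0228, with an adjusted p of 0.128 without control library 2 and 0.0512 without control library 3.

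Most of the mRNAs that the mitoribosome translates fell. Of the 13 mitochondrially encoded mRNAs, 10 fell (76.9%, against 12.4% of all tested genes) and 0 rose (0 rose by DESeq2), with a median log2 fold change of -0.85. Their summed level was 10695, 12177 and 8933 CPM in BARD1-expressing libraries, against 18691, 17426 and 22343 CPM in controls. All 3 BARD1-expressing sums lay below all 3 control sums. MT-ND6 had 135, 156 and 115 CPM in the BARD1-expressing libraries, against 334, 305 and 418 CPM in the controls (log2 fold change -1.38 ± 0.18, adjusted p = 0.00608), MT-CO2 990.0, 1130.3 and 828 CPM in the BARD1-expressing libraries, against 2069.7, 1974 and 2469 CPM in the controls (log2 fold change -1.14 ± 0.16, adjusted p = 0.00635) and MT-ND5 567, 613 and 457 CPM in the BARD1-expressing libraries, against 1197, 1119.8 and 1456 CPM in the controls (log2 fold change -1.20 ± 0.16, adjusted p = 0.00662). The count of 10 was 3 without BARD1-expressing library 1 and 4 without control library 1, with all 13 values still below 0 in both. The large rRNA MT-RNR2 had 512, 560.5 and 407 CPM in the BARD1-expressing libraries, against 1153, 1062 and 1321 CPM in the controls (log2 fold change -1.26 ± 0.16, adjusted p = 0.00437), while the small rRNA MT-RNR1 had 347, 395 and 291 CPM in the BARD1-expressing libraries, against 326, 309.7 and 362 CPM in the controls (log2 fold change 0.05 ± 0.12, adjusted p = 0.805). MT-RNR2 did not overlap between groups and MT-RNR1 did, and both were read from libraries selected for poly(A) RNA, which takes up rRNA in part only. The difference between the mitochondrial mRNAs and the members was not tested.

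**Figure D5:**
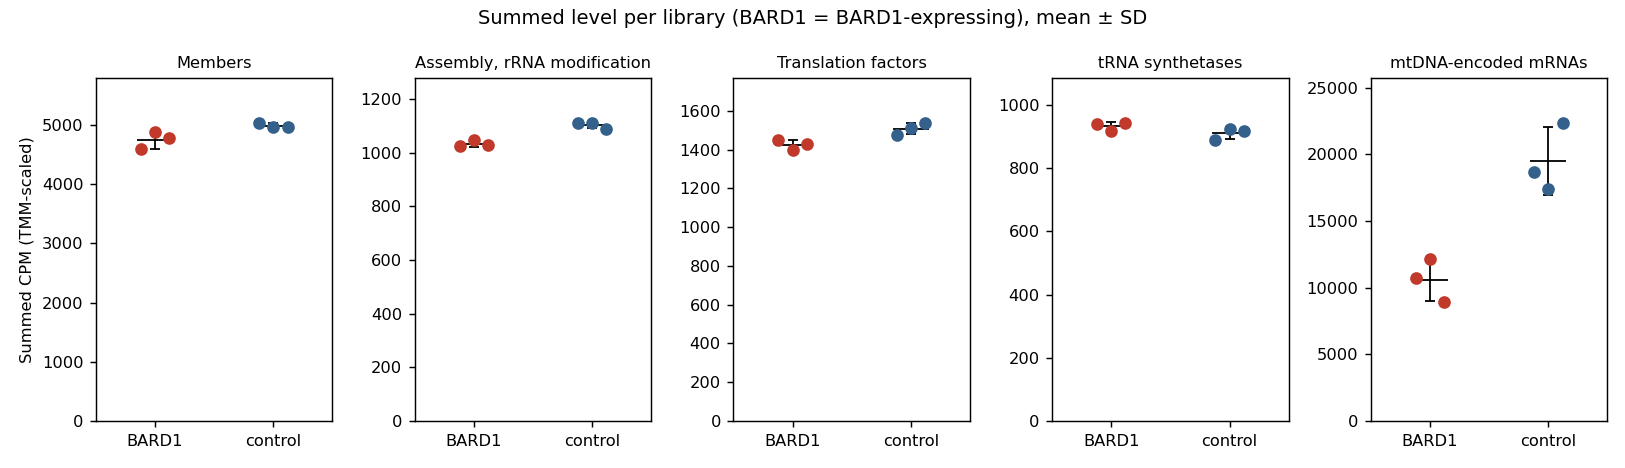
Summed CPM per library (y axis, from 0) of the 77 members and of 4 lists of mitochondrial translation, with BARD1-expressing libraries in red on the left and controls in blue on the right, and lines for the mean ± SD. The member sums are 4587 to 4883 CPM in BARD1-expressing and 4961 to 5032 CPM in control libraries, whereas the mitochondrially encoded mRNAs stand at 8933 to 12177 CPM in BARD1-expressing and 17426 to 22343 CPM in control libraries.

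Among markers of other cell types COL1A1 had the highest level per length, 86.02 ± 2.47 CPM per kilobase in BARD1-expressing cells and 107 ± 3.89 in control cells. PDGFRB had 1.93 ± 0.129 CPM per kilobase in BARD1-expressing cells and 0.673 ± 0.0889 in control cells. The level of ERG was 1.00 ± 0.181 CPM per kilobase in BARD1-expressing cells and 1.07 ± 0.196 in control cells (SD, n = 3 each). Both lay within the range of the 5 lowest members. Of 10 leukocyte markers 2 were tested and edgeR called 0 (1 at an unadjusted p under 0.05, and 0 by DESeq2). Their sum was 1.26 to 1.99 CPM in BARD1-expressing libraries and 1.48 to 2.15 CPM in controls, with CD3E, MS4A1 and NCAM1 at 0 in all 6 libraries and PTPRC at 0 in 5. Of 8 endothelial markers 2 were tested, and KDR, the VEGF receptor, rose at 0.865, 0.578 and 1.06 CPM in the BARD1-expressing libraries, against 0.206, 0.219 and 0.369 CPM in the controls (log2 fold change 1.60 ± 0.48, adjusted p = 0.0133). Its adjusted p was 0.0573 in DESeq2, and in edgeR 0.0848 without BARD1-expressing library 3, 0.0628 without control library 1 and 0.0599 without control library 2. ERG, an ETS factor of endothelial cells, had 6.45, 9.13 and 7.23 CPM in the BARD1-expressing libraries, against 8.91, 8.98 and 6.37 CPM in the controls (log2 fold change -0.07 ± 0.15, adjusted p = 0.794), did not pass the test and made up most of the list's sum. EMCN was at 0 in all 6 libraries. The list summed to 8.10 to 10.6 CPM in BARD1-expressing libraries and 7.38 to 9.78 CPM in controls. Of 9 fibroblast and pericyte markers 5 were tested, and 3 rose and 1 fell. Those that rose were PDGFRB, in the part of chromosome 5 left out for the members (1.51 ± 0.13, adjusted p = 2.24e-09), LUM (1.98 ± 0.52, adjusted p = 0.00527) and ACTA2 (1.36 ± 0.47, adjusted p = 0.0321). LUM and ACTA2 had few counts. LUM stood at 0.619 to 1.10 CPM in BARD1-expressing libraries and 0.131 to 0.289 CPM in controls. ACTA2 stood at 0.629 to 0.950 CPM in BARD1-expressing libraries and 0.131 to 0.454 CPM in controls. COL1A2, COL3A1 and PDGFRA were not tested and reached at most 0.0786, 0.0826 and 0.175 CPM in any library. The adjusted p of ACTA2 was 0.144 in DESeq2, 0.0554 without the low-count filter, and 0.175 without BARD1-expressing library 2, 0.0663 without BARD1-expressing library 3, 0.167 without control library 2 and 0.0678 without control library 3. The list summed to 840.4 to 888 CPM in BARD1-expressing libraries and 1016 to 1083 CPM in controls, nearly all of it COL1A1 (-0.32 ± 0.047, adjusted p = 1.23e-05), with DCN at 0 in all 6 libraries. Of the 7 tested carcinoma markers 2 rose and 1 fell: PAX8 had a log2 fold change of -0.65 ± 0.061, adjusted p = 1.19e-08, KRT7 0.34 ± 0.049, adjusted p = 6.95e-06 and WT1 1.43 ± 0.47, adjusted p = 0.0246 with overlapping groups. The adjusted p of WT1 was 0.125 in DESeq2, and in edgeR 0.555 without BARD1-expressing library 2, 0.0617 without control library 1 and 0.0955 without control library 2. Of all tested genes 16.5% rose and 12.4% fell. The part of these marker shifts in the member values was not tested.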

How the data were processed

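RNA of 6 libraries, 3 of BARD1-expressing and 3 of control cells, was measured by RNA-seq of poly(A)-selected RNA. The authors deposited 1 table of raw read counts per gene, whole numbers with no normalization, for 58735 genes with position and length. The submitters' processing notes name the aligner HISAT2 (2.0.5), the counter featureCounts (1.5.0-p3) and also DESeq2 (1.20.0), on the build GRCh38 (hg38), without role or options. Gene coordinates are those of the deposited table, counted from 1, and equal GENCODE 29 for all 77 members. No 2 libraries of a group were identical (chi-square per degree of freedom 3.41 to 8.11 over genes), so all 6 were kept.

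Counts were filtered with filterByExpr (15400 genes left), scaled by TMM (factors 0.9945 to 1.012) and tested in R 4.3.3 with edgeR 4.0.16 (robust quasi-likelihood F test, group alone, 4 residual degrees of freedom), with p-values adjusted by Benjamini-Hochberg over all tested genes. SE is the absolute log2 fold change over the square root of F. On simulated counts for 15186 genes the test recovered 34% of 1.2-fold, 70% of 1.5-fold and 88% of 2-fold changes, with 6.45% of calls false. In that simulation 1.2-fold changes, larger than most seen here, were missed more often than found. It changed 50 genes at each fold size, drawn from all levels. Far more genes were called in the real data, 4460 of 15400, so these shares may not hold for the members. Alternatives were other scalings, DESeq2 1.42.0, other filters, a replicate term, leaving out each library and, added after seeing the data, GC content as an offset.

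The members, gene lists and motifs were chosen with earlier results of these data known. Genes named are BARD1, all called members, the 5 highest and 5 lowest members per kilobase, the 3 of largest CV, MRPS18A, MRPS30, MRPS36, members left out by position, and up to 3 genes of smallest p per list. Named outside this rule, after their values were seen, were further called assembly factors, ACTA2, head-to-head partners, genes that share bases, MRPS31 and markers at or near 0. Samples were grouped by the genotype label. Promoters are from RefSeq (GRCh38.p14).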

Additional observations from a re-analysis of the deposited data

How the results depend on the processing

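The labels number the replicates of both groups without saying that a number marks a shared culture or day, and the deviations of same-numbered libraries correlated at -0.11, -0.03 and -0.01 over 15400 genes, so the numbers were not used to pair. With a replicate block 6 members were lower and 2 higher, 2 small-subunit and 4 large-subunit members were lower, of these 5 with a bacterial counterpart and 1 mitochondria-specific, and 1 mitochondrially encoded mRNA was lower. In that fit the adjusted p was 0.0787 for MRPL3, 0.0783 for MRPS22, 0.054 for MRPS30, 0.0577 for MRPL1, 0.0905 for MRPL20, 0.0703 for MRPL50, 0.0668 for MRPS35, 0.072 for MT-ND6, 0.0669 for MT-ND5 and 0.0529 for WT1, and MT-CO2 still passed (0.0482). With GC content as an offset (chosen after seeing the data) 1 member was higher and 18 lower, the assembly list had a median of -0.135, and the carcinoma markers one of -0.0288. Without the low-count filter the carcinoma markers had a median of -0.0189 and the leukocyte markers 0.65, with library totals the carcinoma markers had -0.015, and in DESeq2 the leukocyte markers had 0.63.

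Leaving out 1 library at a time gave 1 to 7 members higher, 5 to 13 lower, 1 to 4 small-subunit and 4 to 9 large-subunit members lower, and 3 to 11 mitochondrially encoded mRNAs lower. The median log2 fold change of the members stayed between -0.09 and -0.04, that of the assembly list between -0.117 and -0.0835, that of fibroblast and pericyte markers between 1.00 and 1.62, and that of carcinoma markers between -0.0195 and 0.0199. Among the named genes, sign changes arose in genes that did not pass the test with all 6 libraries. Their log2 fold changes with 1 library left out spanned -0.263 to 0.0241 for MRPS17, -0.091 to 0.307 for MRPL54, -0.0114 to 0.171 for MRPS34, -0.217 to 0.00126 for MRPL46, -0.244 to 0.026 for ERG, -0.0657 to 0.155 for MT-RNR1 and -0.107 to 0.0411 for GADD45GIP1. Further members changed sign. Of all 77 members, 54 lay below 0 with all 6 libraries, 48 without BARD1-expressing library 1 and 62 without BARD1-expressing library 2. The next counts cover the genes named by rule other than BARD1, with the further called assembly factors and ACTA2. Over these genes and all alternatives, 728 values kept direction and side of the threshold. A further 74 lost the call, 11 gained one and 11 changed sign. Members in this set that gained a call were MRPL37, MRPL53, MRPL54 and MRPS34, the last at an adjusted p of 0.0265 without BARD1-expressing library 1. Members outside this set gained calls too. Among them were MRPL28, MRPL35, MRPL51 and MRPL55 without BARD1-expressing library 1, and MRPS25 and MRPS26 without BARD1-expressing library 2. With the GC offset they included MRPL4, MRPL49 and MRPS12. Over all genes, calls numbered 3317 to 4755 with 1 library left out, 3611 in DESeq2 and 5268 with the GC offset. Why these values moved was not tested. BARD1 kept its call in all alternatives (log2 fold change 1.33 to 1.43).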
